A study of Danio rerio with 6 samples.

Results

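Transcripts of 5 immune genes, the type I interferon IFNphi3, the type II interferon ifng1-1, the interleukin-12 receptor chain IL12RB2 and the GTPases MX and GBP1, were followed in whole zebrafish (Danio rerio) embryos on PCR array plates that read 326 genes with SYBR Green dye. The 5 genes were taken by their plate symbols and were chosen by their measured level in control embryos and their difference between the groups, so both are described here and not tested. Embryos of the control group had received the empty plasmid ptGFP1, and embryos of the NOD1 group had received ptGFP1-NOD1, the same plasmid carrying NOD1, an intracellular receptor for fragments of bacterial peptidoglycan. Both groups were collected at 24 hours post fertilization and had 3 biological replicates of 1 plate each, with RNA from pools that averaged 150 to 200 whole embryos per group, per the labels. The labels name neither the promoter that drives NOD1 in the plasmid nor the dose, the strain or the spawnings behind the replicates.

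Interferons are secreted proteins that put cells into an antiviral state. Type I interferons of zebrafish, named IFNphi, bind receptors made of CRFB chains, and JAK kinases then activate STAT proteins, among them STAT2, which with IRF9 turn on antiviral genes. MX proteins are dynamin-like GTPases and GBP proteins are guanylate-binding GTPases, and both families are textbook targets of interferon in vertebrates. Type II interferon acts through its own receptor chains. In mammals, interleukin-12 acts through IL12RB1 and IL12RB2 and the transcription factor STAT4 to raise type II interferon in lymphocytes. Whole embryos at this stage have innate leukocytes such as macrophages, whereas T lymphocytes appear later.

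The threshold cycle (Ct) is the PCR cycle at which fluorescence passes a set threshold, so an earlier Ct means more template. The relative level used below is the mean Ct of the reference genes ACTB, GAPDH and Tuba1 on a plate minus the Ct of the gene. On this log2-like scale a step of 1 is about a doubling if the product doubles in each cycle. Between 314 and 321 of the 326 gene wells of a plate had a Ct under 35, and 319 genes were kept for the fit. All 5 genes were kept, and all 30 of their wells had a Ct under 35 and carried no instrument flag. The reference genes came 0.655 cycles later in NOD1 plates (17.6 ± 0.136 in control and 18.3 ± 0.102 in NOD1, SD, n = 3 each), and 1 of their 18 wells, Tuba1 of NOD1 replicate 3, carried an instrument flag. The plate also reads 18s rRNA, which was not used as a reference gene. Its relative level was 10.34, 10.53 and 10.33 in control and 8.22, 8.64 and 8.51 in NOD1 plates, so it did not keep step with the 3 reference genes. Control replicate 1 was run on 1 day, control replicates 2 and 3 on another, and all NOD1 plates on a later day, so no run day held both groups, and run day and group cannot be told apart.

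All 5 genes were weak in control embryos, at numbers 216 to 315 of the 319 kept genes from strongest to weakest, and all 5 were higher in NOD1 embryos relative to the reference genes. IFNphi3 was 11.01-fold, GBP1 9.77-fold, ifng1-1 9.31-fold, IL12RB2 9.15-fold and MX 3.26-fold higher, although MX was lower in NOD1 embryos with quantile and cyclic loess scaling. Every NOD1 plate lay above every control plate for each of the 5, which was also so for 42.3% of the 319 genes, while 21.6% had every NOD1 plate below every control plate. Of all 319 genes, 118 (37%) were higher and 49 (15.4%) lower in NOD1 embryos at an adjusted p under 0.05 (limma, Benjamini-Hochberg). By the size of the difference IFNphi3 was number 7 of the 319, GBP1 number 9, ifng1-1 number 10, IL12RB2 number 11 and MX number 58.

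**Figure D1:**
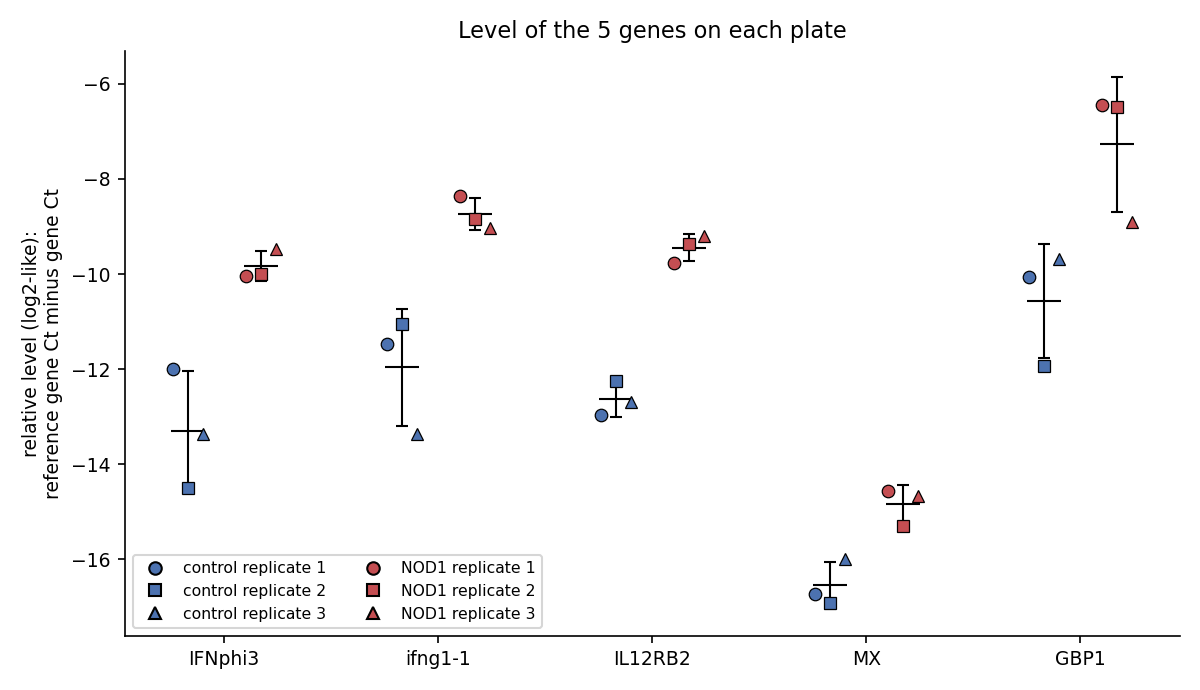
Relative level (log2-like, mean Ct of ACTB, GAPDH and Tuba1 minus Ct of the gene) of each gene on the 3 control plates (blue) and the 3 NOD1 plates (red), with group means and SDs as black bars. The groups lie apart for all 5 genes, by 2.49 for IL12RB2 and by 0.69 for MX, and MX, whose direction turns with quantile and cyclic loess scaling, is the weakest gene in both groups.

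IFNphi3 is a type I interferon of the group whose receptor in zebrafish pairs CRFB2 with CRFB5. Its relative level was -12.01, -14.50 and -13.37 in control replicates 1 to 3 and -10.03, -9.99 and -9.47 in NOD1 replicates 1 to 3. The NOD1 plates lay close together, within a 1.48-fold range, while the control plates spread over a 5.62-fold range with replicate 2 lowest. The group means were -13.29 ± 1.25 and -9.83 ± 0.31 (SD, n = 3 each), a difference of 3.46 ± 0.63 (standard error, SE, of the fit) on the log2 scale. The raw Ct averaged 30.9 in the control and 28.1 in the NOD1 plates, and the latest NOD1 well came 1.24 cycles before the earliest control well. The control spread set much of the uncertainty, since the fold was 17.2 without control replicate 1 and 7.25 without control replicate 2.

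Of the other 3 type I interferons of the plate, 2 rose and 1 did not pass. Over all 319 genes, 37% were higher and 15.4% lower. By mean level IFNphi1 and IFNphi2 lay among the weakest 80 genes, of which 62.5% rose. The list of interferons and their receptors held 8 other kept genes, of which 6 (75.0%) rose and 0 fell. IFNphi4 rose by 2.50 ± 0.33 on the log2 scale (5.64-fold, limma adjusted p = 0.00235) and IFNphi2 by 2.26 ± 0.43 (4.80-fold, adjusted p = 0.00780), although the IFNphi2 rise was 0.77 with quantile scaling and 0.53 with cyclic loess scaling (adjusted p = 0.249 and 0.295). IFNphi1 was at -15.78, -14.24 and -14.96 in control and -16.13, -13.22 and -14.84 in NOD1 plates. Its groups overlapped, and its difference of 0.26 ± 0.80 did not pass (adjusted p = 0.798) and was below 0 with global median, quantile and cyclic loess scaling and on raw Ct. In the RefSeq gene table of assembly GRCz12tu, ifnphi3, ifnphi2 and ifnphi1 follow each other directly, so these values come from 3 neighbouring genes. Neighbours are named here from that table and not for how they moved.

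Among the receptor chains of type I interferon, CRFB1, which serves the other group of type I interferons, rose by 1.67 ± 0.33 (limma adjusted p = 0.00858). It did not pass with quantile scaling (0.97, adjusted p = 0.0641) or on raw Ct (1.02, adjusted p = 0.0526). The shared chain CRFB5 rose by 0.66 ± 0.12 (adjusted p = 0.00761), but differed by 0.19 with global median scaling and by 0.0064 on raw Ct (adjusted p = 0.219 and 0.968). No well of the plate carries the symbol CRFB2.

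The symbol ifng1-1 matches by accession the RefSeq gene ifng1r, a type II interferon related to interferon gamma. It was at -11.47, -11.06 and -13.37 in the control plates and at -8.37, -8.84 and -9.02 in the NOD1 plates. Control replicate 3 was the lowest of the control plates by far, and the lowest NOD1 plate was 2.03 above the highest control plate. The means were -11.96 ± 1.23 and -8.75 ± 0.34 (SD, n = 3 each), a difference of 3.22 ± 0.62 (SE). Without control replicate 3 the fold was 5.73 in place of 9.31.

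The neighbouring gene ifng1, measured as ifng1-2, encodes zebrafish interferon gamma. It was at -12.36, -11.93 and -12.28 in control and at -9.79, -10.22 and -10.28 in NOD1 plates. The rise of 2.09 ± 0.20 (4.26-fold, limma adjusted p = 9.70e-04) was 0.82 with quantile and 0.96 with cyclic loess scaling. In the same gene order follow il26 and il22, which encode cytokines of the IL-10 family. IL22 rose by 2.30 ± 0.24 (4.94-fold, adjusted p = 0.00135), whereas IL26, the gene next to ifng1-1, had overlapping groups and differed by 0.77 ± 0.41 (adjusted p = 0.169). The IL22 rise passed under every scaling, at 1.11 to 2.42, whereas the IL26 difference was -0.68 with quantile and -0.82 with cyclic loess scaling, and 1.16 without NOD1 replicate 2 (adjusted p = 0.0372). Of the type II receptor chains, CRFB17 rose by 0.87 ± 0.15 (adjusted p = 0.00622; 0.39 with global median scaling, adjusted p = 0.104, and 0.21 on raw Ct, adjusted p = 0.402) and CRFB6 differed by 0.18 ± 0.13 (adjusted p = 0.300), with CRFB6 below 0 under global median scaling and on raw Ct.

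**Figure D2:**
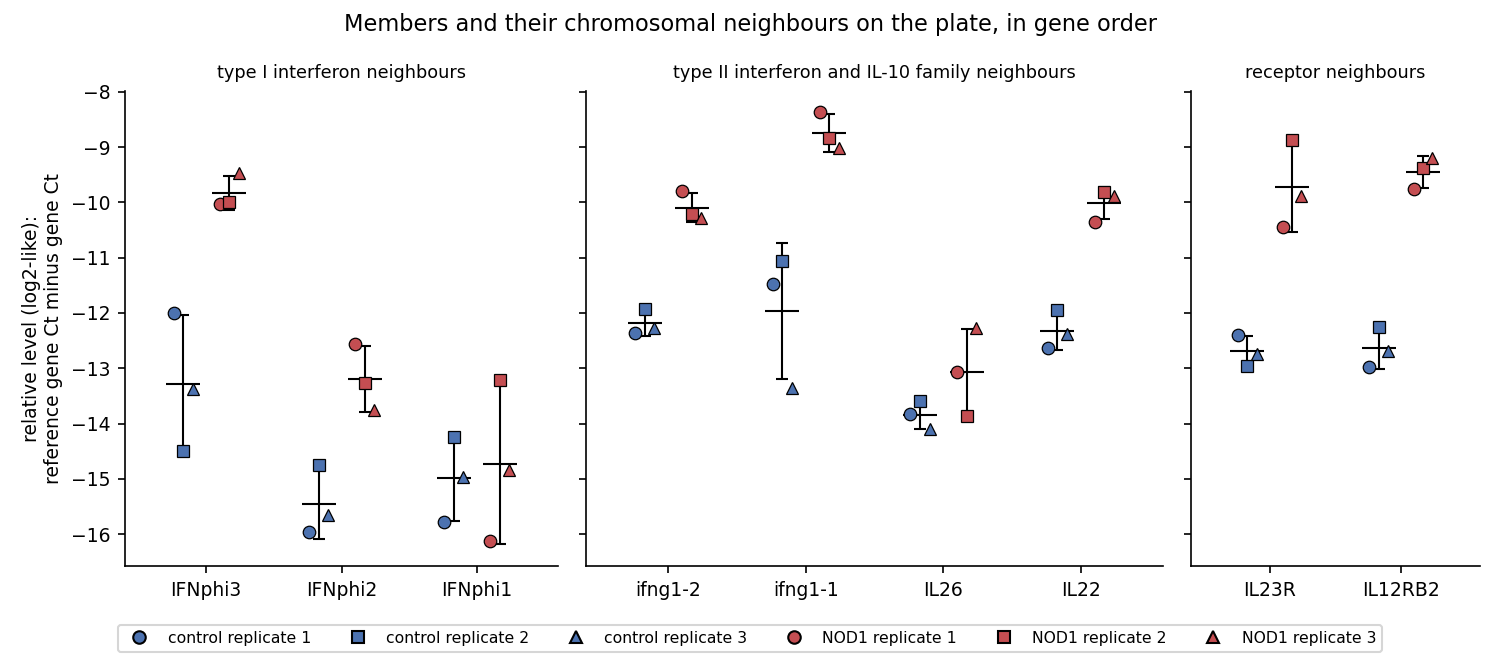
Relative level (log2-like) on each control plate (blue) and NOD1 plate (red), with means and SDs, for IFNphi3, ifng1-1 and IL12RB2 and the plate genes beside them in RefSeq gene order. IFNphi1 and IL26 have overlapping groups, while the other genes shown have NOD1 plates above all control plates.

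IL12RB2 encodes the signalling chain of the interleukin-12 receptor. Its relative level was -12.97, -12.25 and -12.70 in control plates and -9.76, -9.38 and -9.20 in NOD1 plates. It had the tightest plates of the 5 genes, with SDs of 0.37 in control and 0.29 in NOD1, and the widest gap between the groups, 2.49. The difference of 3.19 ± 0.25 (SE, 9.15-fold) stayed between 3.03 and 3.39 whichever plate was left out. It fell to 2.07 with cyclic loess and 2.17 with quantile scaling.

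Of the 5 other kept genes in the list of interleukin-12 and type 1 helper genes, 4 rose, 0 fell and 1 did not pass. Over all 319 genes, 37% were higher and 15.4% lower. The median difference of the 5 was 2.20, against 0.32 for all 319 genes. It was 1.42 for the weakest 80 genes by mean level and 0.78 for the next 80, the groups in which these 5 lie. IL23R, the receptor of the related cytokine interleukin-23 and the neighbour of il12rb2 in gene order, rose by 2.97 ± 0.42 (7.81-fold, limma adjusted p = 0.00297). IL12a, the p35 subunit of interleukin-12, rose by 2.30 ± 0.43 (adjusted p = 0.00750), and the well labelled IL18R by 2.20 ± 0.15 (adjusted p = 5.81e-04). The symbol IL18R matches RefSeq only as a synonym of il1rapl2, an accessory-protein-like gene of the interleukin-1 receptor family, so its place in the list rests on the plate symbol. IL12BB, a zebrafish copy of the p40 subunit, rose by 1.80 ± 0.42 (adjusted p = 0.0158), but its difference shrank to 0.14 under quantile and 0.0098 under cyclic loess scaling (adjusted p = 0.858 and 0.983). STAT4, which relays interleukin-12 signals, differed by 0.39 ± 0.18 (adjusted p = 0.125), and its difference was below 0 with global median, quantile and cyclic loess scaling and on raw Ct.

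Genes listed as blood and leukocyte markers, which other cells of a whole embryo may also express, went both ways. Of 6 kept markers, 2 (33.3%) rose and 2 (33.3%) fell. Over all 319 genes 37% rose and 15.4% fell, so the plate as a whole went both ways too. The myeloid regulators CEBPB and SPI1 rose by 1.48 ± 0.18 and 0.81 ± 0.19 (limma adjusted p = 0.00178 and 0.0146). The myeloid growth factor receptors CSF1R and CSF2RB fell by 1.17 ± 0.16 and 1.84 ± 0.57 (adjusted p = 0.00271 and 0.0409). The pan-leukocyte phosphatase PTPRC and GATA3, listed for its part in lymphoid cells, did not pass. Since T lymphocytes appear later than this stage, GATA3 cannot be read here as a marker of them. SPI1 missed the threshold without control replicate 3 (0.78, adjusted p = 0.0507), with quantile and global median scaling (0.62 and 0.34, adjusted p = 0.0628 and 0.132) and on raw Ct (0.16, adjusted p = 0.484). CSF2RB missed it without either of NOD1 replicates 1 and 2 or any control plate (adjusted p = 0.0715 to 0.119). Quantile and cyclic loess scaling gave PTPRC -0.79 and -0.71 (adjusted p = 0.00461 and 0.0136; -0.49 with global median scaling and -0.67 on raw Ct, adjusted p = 0.0356 and 0.0203) and GATA3 0.40 and 0.43 (adjusted p = 0.0138 and 0.0157). The summed level of the 6 markers was 2.42% to 2.57% of the mean reference gene level in control and 2.72% to 3.65% in NOD1 plates, and no marker was at the ceiling of 35 cycles except CSF2RB in 1 NOD1 well. GATA3 alone made up 58.9% to 61.6% of this sum in control and 55.6% to 58.3% in NOD1 plates. The sum thus mostly follows GATA3, and how much of it comes from blood cells was not measured. The part of these markers in the IL12RB2 difference was not tested. In whole embryos fewer cells of a type and less RNA per cell cannot be told apart.

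GBP1 was the strongest of the 5 genes and had the widest spread of them between NOD1 plates. Its relative level was -10.06, -11.94 and -9.69 in control and -6.44, -6.48 and -8.90 in NOD1 plates. NOD1 replicate 3 stood well below the other NOD1 plates and 0.79 above the highest control plate. The means were -10.56 ± 1.20 and -7.27 ± 1.41 (SD, n = 3 each), a difference of 3.29 ± 0.90 (SE). The NOD1 SD of GBP1 was the number 7 highest of the 319 genes, whose median NOD1 SD was 0.24. On raw Ct the latest NOD1 well (27.1) and the earliest control well (27.2) were 0.065 cycles apart. The fold was 17.2 without NOD1 replicate 3 and 6.07 without control replicate 2.

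MX, which matches the zebrafish gene mxa by synonym, stood near the limit of the assay. Its Ct was 34.3, 34.7 and 33.5 in control and 32.8, 33.7 and 32.9 in NOD1 plates, so control replicate 2 was 0.320 cycles short of the ceiling. The raw Ct of the groups overlapped, since control replicate 3 was earlier than NOD1 replicate 2. After subtraction of the reference genes the levels were -16.74, -16.93 and -15.99 in control and -14.57, -15.30 and -14.67 in NOD1 plates and no longer overlapped. The difference was 1.71 ± 0.32 (SE), yet it was -0.31 with quantile scaling and -0.25 with cyclic loess scaling, so the direction of MX depends on the scaling. Whether the MX primers tell mxa from the adjacent gene mxb is not known.

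The other 9 kept genes in the list of interferon-stimulated effectors were mixed, with 3 higher, 0 lower and 6 not past the threshold. Of these 9, 33.3% were higher, against 37% of all 319 genes. The median difference of the 9 was 0.91, but -0.26 with quantile and -0.25 with cyclic loess scaling. NLRC5, which regulates MHC class I genes in mammals, rose by 2.64 ± 0.25 (limma adjusted p = 9.70e-04) and IFI30, a lysosomal thiol reductase, by 0.91 ± 0.17 (adjusted p = 0.00750; 0.43 with global median scaling, adjusted p = 0.0511, and 0.25 on raw Ct, adjusted p = 0.225). IFIH1, the RNA sensor MDA5, rose by 1.21 ± 0.29 (adjusted p = 0.0161), but stood at -0.043 under quantile and -0.30 under cyclic loess scaling, and missed the threshold without NOD1 replicate 2 (1.19, adjusted p = 0.0527). IFIH1 also missed it with global median scaling and on raw Ct.

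**Figure D3:**
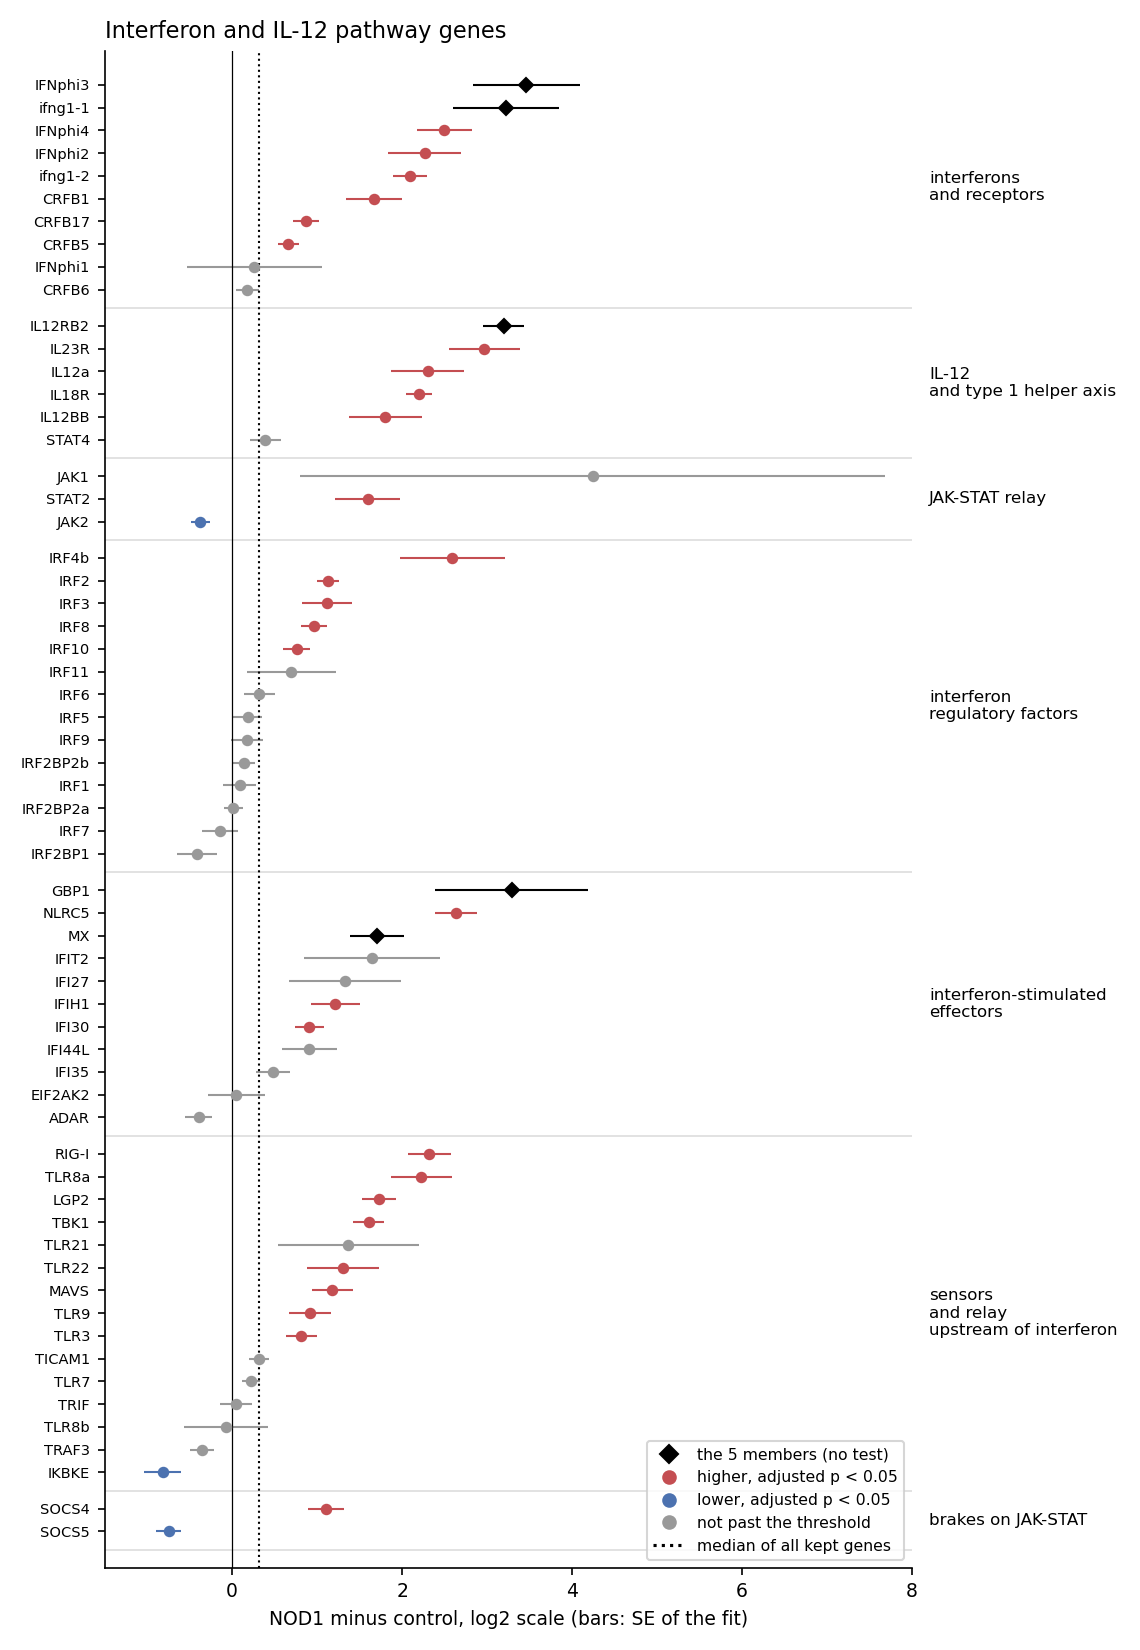
Difference of NOD1 minus control on the log2 scale, with the SE of the fit, for the 5 genes (black diamonds, not tested) and other kept genes of the interferon and interleukin-12 lists, coloured by whether they passed an adjusted p of 0.05. IL23R (2.97) and NLRC5 (2.64) are the highest of the genes called higher, JAK2, IKBKE and SOCS5 are lower, the dotted line is the median of all kept genes (0.32), and the wide bar of JAK1 comes from 1 control well at the ceiling.

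The 5 genes share a low level, and differences on this plate went with level. When the 319 genes were ranked by their mean relative level over the 6 plates, the weakest 80 had a median difference of 1.42 and 50 of them (62.5%) rose. In the next 80 the median was 0.78, in the next 79 it was 0.14, and in the strongest 80 it was -0.11, with 9 (11.25%) higher. The weakest 80 include genes kept only through their NOD1 plates, such as CCL-Cub and CCL21L, whose control wells were all at the ceiling. CSF2RB was kept only through its control plates. How far this rule moved the median and share of the weakest 80 was not tested. IFNphi3, IL12RB2 and MX lay among the weakest 80, and ifng1-1 and GBP1 among the next 80. The MX difference of 1.71 was thus close to the median of the genes of its level, while the other 4 genes lay above the median of theirs. Quantile and cyclic loess scaling even out differences that go with level, whether these are technical or not. The median over all 319 genes, 0.32 with the reference genes, was -0.16 with global median, -0.091 with quantile and -0.025 with cyclic loess scaling, 0.43 with B2M added and -0.34 without any reference gene. In place of 118 higher and 49 lower genes, global median scaling gave 81 and 113, quantile scaling 59 and 78, cyclic loess scaling 66 and 72 and raw Ct 71 and 134.

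**Figure D4:**
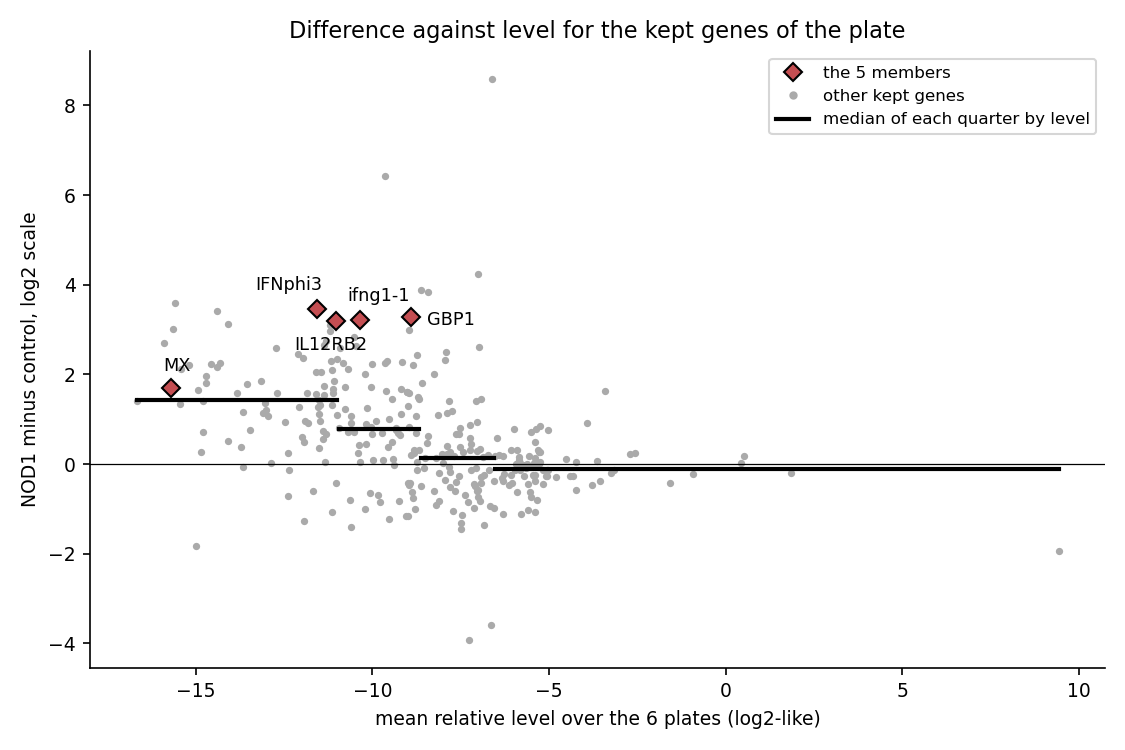
Difference of NOD1 minus control (log2 scale) against the mean relative level over the 6 plates (log2-like) for the 319 kept genes, with the 5 genes as red diamonds and the median of each of 4 groups by level as a black line. The lines step down from 1.42 in the weakest group to -0.11 in the strongest, and MX sits near the line of its group (and below 0 with quantile and cyclic loess scaling) while the other 4 genes lie above theirs.

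**Figure D5:**
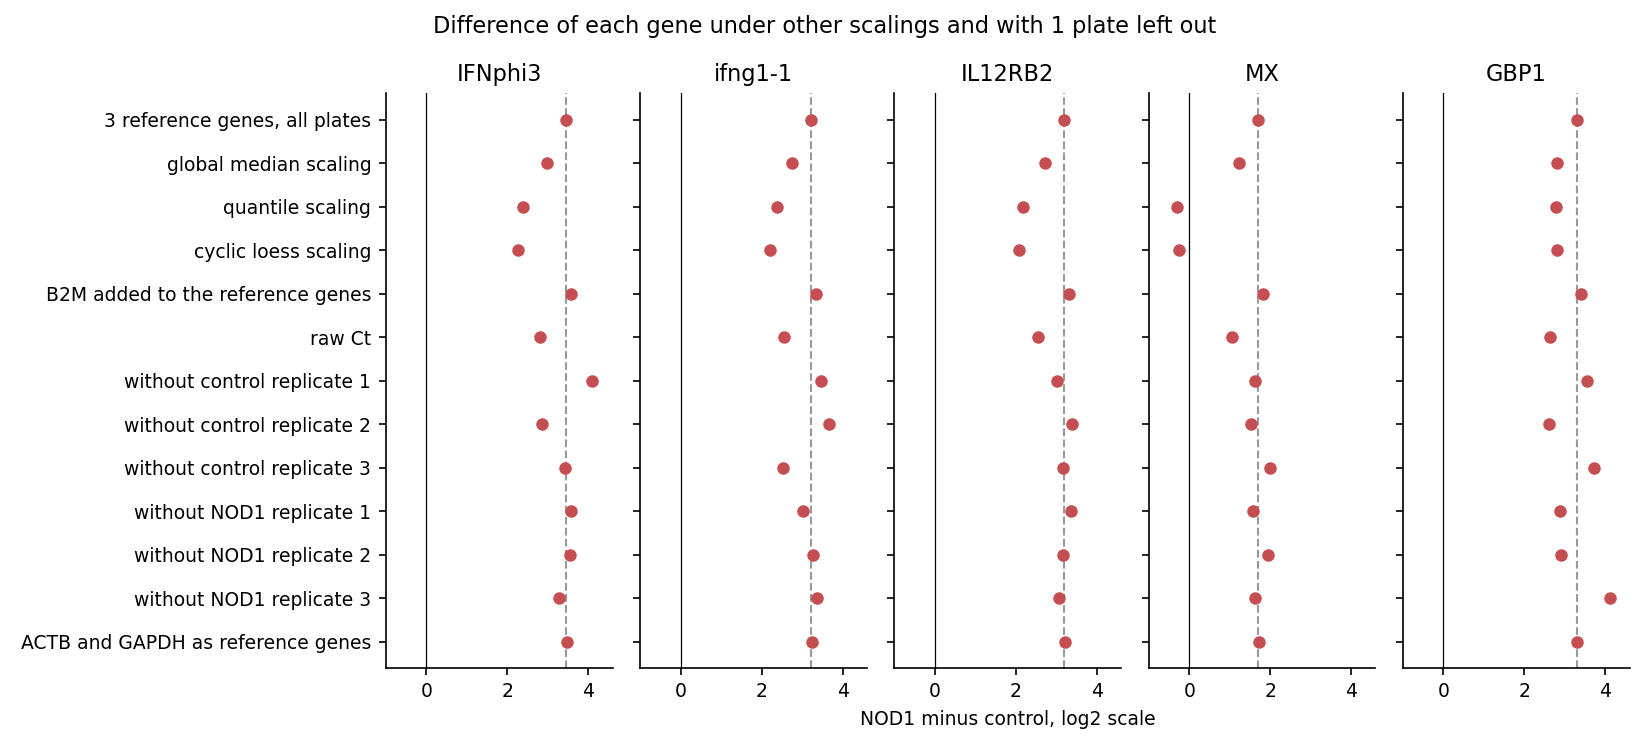
Difference of NOD1 minus control (log2 scale) of each of the 5 genes with the 3 reference genes (dashed line), under other scalings and with 1 plate left out at a time. IFNphi3, ifng1-1, IL12RB2 and GBP1 stay above 2 in all settings shown, and MX is below 0 with quantile and cyclic loess scaling.

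In control embryos the order of relative levels was GBP1 (-10.56), ifng1-1 (-11.96), IL12RB2 (-12.64), IFNphi3 (-13.29) and MX (-16.55). Neighbours in this order overlapped between plates except for IFNphi3 and MX, which lay apart by 3.26 on average. The order was the same in NOD1 embryos, where ifng1-1 and IL12RB2 did not overlap either. The files give no amplification efficiency for an assay, so an order between assays may differ from one of transcript number.

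Among genes of the signal relay below the interferon receptors, STAT2 rose by 1.59 ± 0.38 (limma adjusted p = 0.0158). It was at 0.93 with quantile scaling (adjusted p = 0.122), at 0.94 on raw Ct (adjusted p = 0.0711) and at 1.38 without NOD1 replicate 2 (adjusted p = 0.0525). JAK2 fell by 0.37 ± 0.11 (adjusted p = 0.0374). It no longer passed once any 1 plate was removed (adjusted p = 0.0564 to 0.139), with cyclic loess scaling (0.111) or with B2M added (0.207). JAK1, the kinase shared by the interferon receptors, had a difference of 4.24 ± 3.45 (adjusted p = 0.332) that came from control replicate 1, whose well was undetermined. Without that plate it was 0.11 (adjusted p = 0.613).

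Of the 14 kept genes whose symbol starts with IRF, 3 of them IRF2-binding proteins, 5 rose, 0 fell and 9 did not pass. Of these 14, 35.7% were higher, against 37% of all 319 genes. The median difference of the 14 was 0.25, with 2 higher and 3 lower under global median scaling, 1 and 2 under quantile and cyclic loess scaling and 2 and 7 on raw Ct. IRF4b, whose mammalian relative IRF4 regulates lymphoid and myeloid cells, rose by 2.59 ± 0.62 (limma adjusted p = 0.0160), with adjusted p = 0.0505 without NOD1 replicate 1 and 0.0515 without NOD1 replicate 2, adjusted p = 0.168 with quantile and 0.176 with cyclic loess scaling, and a difference of 3.20 without control replicate 2 and 1.94 without control replicate 3. IRF2, known as a repressor of interferon targets, rose by 1.13 ± 0.13 (adjusted p = 0.00154). IRF3, which turns on interferon genes, rose by 1.11 ± 0.29 (adjusted p = 0.0223), but took -0.19 under quantile and -0.078 under cyclic loess scaling. IRF3 also missed the threshold with global median scaling (adjusted p = 0.0903), on raw Ct (0.184) and without control replicate 1 (0.0572), control replicate 3 (0.0631) or NOD1 replicate 2 (0.0627). IRF9, a partner of STAT2, differed by 0.18 ± 0.19 (adjusted p = 0.441), and below 0 with global median and quantile scaling and on raw Ct. IRF7, an interferon-inducible inducer of interferon, differed by -0.14 ± 0.21 (adjusted p = 0.582), but fell by 1.37 under quantile, by 1.52 under cyclic loess and by 0.61 under global median scaling and by 0.80 on raw Ct (adjusted p = 0.00195, 0.00222, 0.0272 and 0.00872).

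Upstream of the interferons, 9 of 16 kept sensor and relay genes rose, 1 fell and 6 did not pass, with IFIH1 counted here too. TICAM1 and TRIF, neither of which passed, both match the RefSeq gene ticam1, so 1 gene stands for 2 of the 16. Of the 16, 56.25% were higher, against 37% of all 319 genes. By mean level the 16 lay in the weakest 80, the next 80 and the following 79 genes of the plate. In these groups 62.5%, 48.75% and 25.3% of the genes rose. The median of the 16 was 1.05, against -0.078 under quantile and -0.081 under cyclic loess scaling. RIG-I, a sensor of viral RNA, rose by 2.32 ± 0.26 (limma adjusted p = 0.00151), the endosomal RNA receptor TLR8a by 2.22 ± 0.36 (adjusted p = 0.00451) and LGP2, a RIG-I relative, by 1.73 ± 0.20 (adjusted p = 0.00154). LGP2 was at 0.47 with quantile scaling (adjusted p = 0.0834). The gene that fell was the kinase IKBKE, by 0.82 ± 0.22 (adjusted p = 0.0225), which missed the threshold without control replicate 1, 2 or 3 (adjusted p = 0.0534, 0.0586 and 0.0721). Of the cytokine signalling brakes, SOCS4 rose by 1.10 ± 0.21 (adjusted p = 0.00750; 0.45 on raw Ct, adjusted p = 0.0937) and SOCS5 fell by 0.75 ± 0.15 (adjusted p = 0.00858), while PIAS2 was at the ceiling on all 6 plates and was not tested.

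Over all lists together, and without the 5 genes, 29 of 58 kept genes (50.0%) rose and 3 (5.17%) fell, against 37% and 15.4% of all genes on the plate. Among the 17 list genes that lay in the weakest 80 of the plate, 10 rose (58.8%, against 62.5% of those 80). In the next 80, 11 of 19 list genes rose (57.9%, against 48.75%), and in the following 79, 7 of 16 (43.75%, against 25.3%). In the strongest 80, 1 of 6 list genes rose (16.7%, against 11.25%). Of the 29, 10 passed under all 6 other scalings. These were IFNphi4, ifng1-2, IL12a, IL23R, IL18R, IRF2, NLRC5, RIG-I, TLR8a and the kinase TBK1. The scalings were global median, quantile, cyclic loess, B2M added, ACTB and GAPDH alone, and raw Ct. B2M added and ACTB and GAPDH alone raised the difference of every gene alike, so they hardly challenge a rise. The median over all genes was 0.43 and 0.33 with them, against 0.32. The 5 that took the opposite sign under at least 1 scaling were IFIH1, IRF3, TLR3, TLR9 and TLR22. Genes of this paragraph that were not described above were named after their values were seen.

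For each of the 5 genes the kept genes with the most similar profile over the 6 plates were found by the root mean square (RMS) difference of relative levels, each gene first set to 0 at its control mean. This measure takes in the size of the group difference, by which the 5 genes were chosen. Nearest to IFNphi3 were the homing receptor CCR7 (RMS 0.53), lymphotoxin LTA (0.67) and the cytokine IL17A/F1 (0.72). Nearest to ifng1-1 were the Toll-pathway kinase IRAK2 (0.42), IRF4b (0.54) and IL17A/F1 (0.63). For IL12RB2 they were the BCL2-family gene BNIP3 (0.32), LTA (0.37) and IL17A/F1 (0.47). For MX they were TBK1 (0.32), the chemokine receptor CCR12.2 (0.35) and the chemokine CXCL11L (0.37). The match of MX and TBK1 did not hold with quantile and cyclic loess scaling. The TBK1 difference was then 0.99 and 1.07, and that of MX -0.31 and -0.25. GBP1 had no gene within 0.9, the nearest being CCR9b (0.91), CXCL12a (0.92) and IL17A/F1 (1.05). The CXCL12a well differed by 3.83, but another well, SDF1a, matches the same RefSeq gene by synonym. SDF1a was at -5.39, -5.42 and -5.53 in control and -5.70, -5.20 and -5.37 in NOD1 plates, so the 2 wells disagree. IL17A/F1 and CCR9b each had 2 control wells at the ceiling, so their profiles are cut off at the low end. IRAK2, whose symbol has no RefSeq match, was at -17.49 in control replicate 3, where the ceiling lies at -17.52. On that plate ifng1-1 was lowest too, so their match leans on a well near the ceiling. Among the 5 genes the closest pair was ifng1-1 and IL12RB2 (0.77), and the nearest member to MX was IL12RB2 at 1.17.

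The nod1 well and the 5 genes peaked on different NOD1 plates. The nod1 well was at -10.81, -10.94 and -10.97 in control and at -3.20, -1.49 and -2.26 in NOD1 plates, highest in NOD1 replicate 2. None of the 5 genes was highest on that plate, with IFNphi3 and IL12RB2 highest in NOD1 replicate 3 and ifng1-1, MX and GBP1 in NOD1 replicate 1. Some margins were small. GBP1 was at -6.44 in NOD1 replicate 1 and -6.48 in NOD1 replicate 2, and MX at -14.57 in NOD1 replicate 1 and -14.67 in NOD1 replicate 3. With 3 plates this is a description only. Whether the nod1 well read injected plasmid as well as transcript is not known, and NOD1 protein was not measured.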

How the data were processed

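Per the file headers, the deposited Ct values (a score in cycles, lower for more template) were read with SDS 2.3 at a manual threshold of 0.2 and were not normalized. A second deposited table gives the authors' mean delta Ct of each group, a log2-like value, the ratio (fold) of NOD1 over control, a p-value and a signed fold score. It was used only as an alternative.

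Here Ct values over 35 or undetermined were set to 35. Genes with a Ct under 35 on every plate of at least 1 group were kept, 319 of 326. Groups were compared with limma 3.58.1 in R 4.3.3 over all 6 plates, two-sided, with Benjamini-Hochberg adjustment over the 319 genes and a threshold of 0.05. The script was tested on simulated data. P-values measure the spread between these plates, which may be technical in part.

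Members and lists were chosen with earlier results of these data known. The named genes are the 5 genes, up to 3 called genes per list with the largest difference, set receptor, STAT and IRF genes, and the 3 nearest profiles, apart from genes that are counted in the totals but not reported here. Of the 5 genes 4 matched RefSeq by accession, GBP1 after its deposited prefix NNM was read as NM, and MX by synonym. Promoter motifs, planned for the 5 genes, were not analysed here.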

Additional observations from a re-analysis of the deposited data

How the results depend on the processing

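The differences of the 5 genes that moved beyond the spread between plates, or reversed, did so with the scaling. With cyclic loess scaling the differences were 2.26 for IFNphi3, 2.21 for ifng1-1, 2.07 for IL12RB2 and -0.25 for MX. With quantile scaling they were 2.39 for IFNphi3, 2.17 for IL12RB2 and -0.31 for MX. Global median scaling and raw Ct each shift all genes of a plate alike, so they lowered all 5 differences by the same amount. With the global median IL12RB2 was 2.72 and MX 1.23, and on raw Ct 2.54 and 1.05. These 2 are named because their spread between plates was the smallest of the 5. Their pooled SDs were 0.33 and 0.45, against 0.90 to 1.31 for the others. The cause of the moves with cyclic loess and quantile scaling was not tested. Over the plate, 66 genes were higher with cyclic loess, 59 with quantile scaling and 71 on raw Ct, and 113 were lower with the global median, 78 with quantile scaling and 134 on raw Ct. Of the 58 list genes, 19 were higher and 5 lower with cyclic loess, 19 and 8 with the global median, 15 and 7 with quantile scaling and 15 and 15 on raw Ct. With 1 plate left out, IFNphi3 ranged from 2.86 to 4.10, ifng1-1 from 2.52 to 3.67, IL12RB2 from 3.03 to 3.39, MX from 1.52 to 1.99 and GBP1 from 2.60 to 4.10. Higher genes numbered 96 to 113 and lower genes 31 to 45 (31 without control replicate 1, 32 without control replicate 3), and list genes 24 to 30 and 1 to 3, with 1 lower without control replicate 1, 2 or 3. Plates of the same replicate number had correlations of deviations of 0.12, 0.032 and -0.022. With 3 plates per group these cannot decide whether the numbers pair the plates. A replicate block gave 111 higher and 40 lower genes, and 29 and 2 list genes. Of the named genes it took JAK2 (adjusted p = 0.0970) and IRF3 (0.0540) out of the calls. B2M added and ACTB and GAPDH alone (the latter chosen after seeing the data) each shift all genes of a plate alike. They moved none of the 5 differences by more than the spread between plates. A ceiling of 40 cycles, late wells missing and no filter could not move them, since every well of the 5 genes had a Ct under 35. The authors' deposited table held the same 5 differences, so it is no separate check of them.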
